A study of Homo sapiens with 24 samples.

Results

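Transcripts of 10 genes of the transforming growth factor β (TGF-β) superfamily were followed in T/C-28a2 cells, an immortalised human chondrocyte line used as a model of cartilage cells. The genes were matched by symbol among the 62703 gene identifiers counted in every library. They are the bone morphogenetic protein (BMP) genes BMP2, BMP4 and BMP6, the activin subunit gene INHBA, the TGF-β genes TGFB1, TGFB2 and TGFB3, the antagonist GREM1, the inhibitory SMAD gene SMAD7 and the target gene ID1. Of these 10 genes, 9 were among the 16600 that passed the filter on low counts and were tested, and TGFB3 did not. RNA-seq was performed on 24 libraries, 4 biological replicates in each of 6 groups. WT Ctr and WT Sor were parental cells without transfection, kept in isotonic media or in media with 100 mM sorbitol for 7 days. WNK2 trans Ctr and WNK2 trans Sor were parental cells that received a plasmid with wild-type WNK2, a kinase of the osmotic stress response, 48 h before the same treatments. WNK2- Ctr and WNK2- Sor were cells in which CRISPR/Cas9 had deleted WNK2 exon 2, which holds the start codon, and they were grown from single cells as clonal lines. Untransfected cells were the comparison for the transfected ones, so the effect of WNK2 and that of transfection itself cannot be told apart. In the same way a difference of the WNK2- cells cannot be told apart from one between clones. The study asked how WNK2 and chronic hyperosmotic stress act on chondrocyte gene expression, and the comparisons below ask this of BMP and TGF-β signalling.

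As background, BMP, activin and TGF-β ligands are secreted dimers that bind pairs of type I and type II receptor kinases. BMP receptors phosphorylate SMAD1, SMAD5 and SMAD9, whereas activin and TGF-β receptors phosphorylate SMAD2 and SMAD3, and both kinds of SMAD enter the nucleus with SMAD4. Gremlin, the product of GREM1, binds BMP2 and BMP4 outside the cell and keeps them from their receptors. SMAD7 is induced by these pathways and shuts their receptors down, and ID1 is transcribed in direct response to BMP signals. In cartilage, BMPs promote chondrocyte differentiation and matrix synthesis, TGF-β maintains articular cartilage, and gremlin is one of its natural BMP inhibitors.

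Total counts per library ran from 14153002 to 25664619. Depth went with genotype, since WNK2- Ctr libraries held 20441364 to 22461641 counts and WT Ctr libraries 14153002 to 17128840. Levels are therefore given as normalised counts, in which each count is scaled to a library of average size after TMM correction. WNK2 counts did not follow the labels throughout. WNK2 stood at 75.0 to 181 CPM (counts relative to the total of the library) in WT Ctr, at 9.13 to 15.7 CPM in the libraries labelled WNK2 trans Ctr, at 131 to 211 CPM in WNK2 trans Sor and at 15.7 to 18.0 CPM in WT Sor. It was thus lower in all 4 isotonic libraries labelled as transfected than in all 4 isotonic WT libraries, and it was lower in all 4 WT Sor libraries, which were not transfected, than in all 4 WT Ctr libraries. Every direction that follows is between libraries as labelled, and whether a library carries the label of another was not tested. This limit holds for every comparison that uses WT or WNK2 trans libraries, and for both interactions. WNK2- against WT in isotonic media is among them, since it rests on WT Ctr. In the WNK2- libraries WNK2 read 17.3 to 23.5 CPM, and a count over the whole gene does not test the loss of 1 exon. The WT Sor libraries thus read within or below that range. Of 16 chondrocyte markers 11 passed the filter on low counts, and SOX9, a defining one, was listed at 0 in all 24 libraries. The summed level of the 16 markers was 105 to 116 CPM in WT Ctr and 112 to 118 CPM in WT Sor, but 29.2 to 32.9 CPM in WNK2- Ctr and 30.5 to 33.3 CPM in WNK2- Sor. It was 97.4 to 111 CPM in WNK2 trans Ctr and 120 to 173 CPM in WNK2 trans Sor. HAPLN1, a cartilage link protein gene, was the highest of the markers in every group. Its mean was 78.4 CPM in WT Ctr and 13.4 CPM in WNK2- Ctr, and 68.2 CPM in WT Sor and 18.6 CPM in WNK2- Sor. Most of the other tested markers were also lower in WNK2- Ctr than in WT Ctr. SOX5 (1.37 against 0.849 CPM), COL11A2 (5.01 against 3.35) and PRG4 (0.539 against 0.266) were higher. HAPLN1 had a mean of 44.4 CPM in WNK2 trans Ctr and 123 CPM in WNK2 trans Sor. Of the other 10 tested markers, 8 had a lower mean in WNK2 trans Sor than in WNK2 trans Ctr and than in WT Sor. COL9A3, a cartilage collagen gene, was at 18.4 CPM in WNK2 trans Ctr, 1.91 in WNK2 trans Sor and 11.5 in WT Sor. ACAN, for the cartilage proteoglycan aggrecan, was at 8.12, 1.70 and 6.23 CPM and COL2A1, for the main cartilage collagen, at 9.31, 1.37 and 3.29 CPM in the same order. The part of these shifts in the results on WNK2- cells and on WNK2 trans cells below was not tested. Of markers of other cell types, the 4 epithelial ones summed to 603 to 1214 CPM over all libraries, nearly all of it KRT8 and KRT18. The 4 endothelial ones summed to 102 to 108 CPM in WNK2 trans Sor, above 24.3 to 40.6 CPM in WNK2 trans Ctr and 60.9 to 69.7 CPM in WT Sor, with CDH5 at a mean of 52.3, 1.10 and 9.62 CPM in that order. PECAM1 was at 52.6, 30.1 and 54.1 CPM in the same order. VWF was at 0.645, 0.431 and 0.776 CPM and TEK at 0.182, 0.530 and 0.475 CPM. Against WT Sor, the mean of CDH5 alone was thus higher. The 4 endothelial markers summed to 34.2 to 40.6 CPM in WT Ctr, 21.8 to 27.7 CPM in WNK2- Ctr and 34.2 to 44.8 CPM in WNK2- Sor. The 4 leukocyte ones summed to 12.8 to 20.1 CPM in WNK2 trans Ctr and 3.75 to 6.10 CPM in WNK2 trans Sor, mainly CD14, and to 2.05 to 12.9 CPM in the other groups.

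With sorbitol in the libraries labelled as transfected, GREM1 and INHBA rose most and ID1 fell most of the 9 genes. The sequences just upstream of these 3 genes are therefore shown. Each is the 250 bases before the transcription start site given by RefSeq on GRCh38.p14, 5′ to 3′ on the strand of the gene, at chr15:32717754-32718003 (plus strand), chr7:41703091-41703340 (minus strand) and chr20:31605039-31605288 (plus strand). Capitals mark the SMAD-binding motifs CAGACA and GGCGCC and the tonicity-responsive enhancer, searched on both strands with the SMAD palindrome GTCTAGAC.
GREM1: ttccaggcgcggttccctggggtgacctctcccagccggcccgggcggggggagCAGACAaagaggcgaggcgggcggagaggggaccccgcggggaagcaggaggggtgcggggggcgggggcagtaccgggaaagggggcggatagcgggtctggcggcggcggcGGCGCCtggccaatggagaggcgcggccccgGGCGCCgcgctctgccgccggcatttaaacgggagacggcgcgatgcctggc
INHBA: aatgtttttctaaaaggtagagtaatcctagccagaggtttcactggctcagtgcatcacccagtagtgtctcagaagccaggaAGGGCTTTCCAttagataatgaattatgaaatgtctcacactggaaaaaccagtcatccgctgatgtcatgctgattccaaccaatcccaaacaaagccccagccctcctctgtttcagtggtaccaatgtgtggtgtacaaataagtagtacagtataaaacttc
ID1: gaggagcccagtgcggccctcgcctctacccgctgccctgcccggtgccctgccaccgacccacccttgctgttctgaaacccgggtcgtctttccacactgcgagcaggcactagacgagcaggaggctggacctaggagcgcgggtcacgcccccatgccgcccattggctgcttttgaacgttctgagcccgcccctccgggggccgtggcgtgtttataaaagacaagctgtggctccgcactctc

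The GREM1 stretch held 2 matches to GGCGCC and 1 to CAGACA, the INHBA stretch 1 match to the tonicity-responsive enhancer, on the reverse strand, and the ID1 stretch no match to any of the 4 motifs. Among all 35116 promoter windows of 300 bases in the same table (250 before and 50 after the start), 19.2% held GGCGCC, 16.9% CAGACA, 4.92% the tonicity-responsive enhancer and 0.202% GTCTAGAC. In its window of 300 bases INHBA also had 1 match to CAGACA, which is not wholly within the stretch shown. A second GREM1 start site in the table had no match in its window. A match is a run of letters and not a measured binding site. Promoters of 9 of the 10 genes were in the table, all but that of BMP2. Among those not shown, TGFB3, which did not pass the filter on low counts, also had 1 match to the tonicity-responsive enhancer. BMP4 had matches to GGCGCC and CAGACA, and TGFB2 had 1 to CAGACA. BMP6, TGFB1 and SMAD7 had no match.

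BMP2, a BMP that drives cartilage and bone formation, lies on chromosome 20 (GRCh38, 6767664 to 6780280, plus strand). Its normalised counts were 76.0, 67.5, 61.7 and 85.0 in WT Ctr and 253, 258, 220.2 and 236 in WT Sor. In WNK2 trans Ctr they were 118, 129, 94.5 and 110.3, and in WNK2 trans Sor 259.9, 229.9, 359 and 263. In WNK2- Ctr they were 37.9, 21.0, 28.4 and 20.8, and in WNK2- Sor 47.8, 51.7, 41.5 and 48.6. Every library with sorbitol was above every isotonic library of the same cells, and every WNK2- library was below every WT library. Sorbitol raised BMP2 by 1.74 ± 0.17 on the log2 scale (SE) in WT cells (adjusted p = 7.79e-08), by 1.29 ± 0.16 in WNK2 trans cells (adjusted p = 3.93e-07) and by 0.82 ± 0.19 in WNK2- cells (adjusted p = 0.00425). Relative to WT, BMP2 in WNK2- cells changed by -1.42 ± 0.19 in isotonic media (adjusted p = 1.75e-06) and by -2.34 ± 0.17 under sorbitol (adjusted p = 3.00e-11). The response to sorbitol was smaller in WNK2- than in WT cells, with an interaction of -0.92 ± 0.26 (adjusted p = 0.0259), which was not past the threshold when all libraries were thinned to the smallest total (adjusted p = 0.0913). In WNK2 trans cells BMP2 was 0.65 ± 0.17 above WT in isotonic media (adjusted p = 0.0129), and 0.63 when only these 2 groups were fitted (adjusted p = 0.0939). Under sorbitol the difference between WNK2 trans and WT, 0.20 ± 0.16, did not pass the test (adjusted p = 0.338).

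BMP4, the close relative of BMP2, lies on chromosome 14 (GRCh38, 53949736 to 53958761, minus strand). Its normalised counts were 274, 229.7, 216 and 331 in WT Ctr and 443, 450.4, 442 and 425 in WT Sor. WNK2 trans cells had 225, 231, 249.6 and 240.2 in isotonic media and 396, 320.2, 359 and 328 under sorbitol. WNK2- cells had 882, 768, 813 and 691 in isotonic media and 384, 407, 408 and 409 under sorbitol. BMP4 was thus highest in WNK2- Ctr, where no library overlapped any other group, and with sorbitol it moved down in WNK2- cells and up in the others. Sorbitol raised it by 0.75 ± 0.11 in WT (adjusted p = 3.78e-05) and by 0.57 ± 0.11 in WNK2 trans cells (adjusted p = 0.000218), and changed it by -0.97 ± 0.11 in WNK2- cells (adjusted p = 4.74e-07). The interaction with genotype was -1.72 ± 0.16 (adjusted p = 8.35e-08). WNK2- cells had 1.59 ± 0.11 more BMP4 than WT on the log2 scale in isotonic media (adjusted p = 3.36e-11), which is 3.00-fold, and under sorbitol the difference of -0.13 ± 0.11 did not pass the test (adjusted p = 0.348). Under sorbitol BMP4 in WNK2 trans cells was lower than in WT by -0.33 ± 0.11 (adjusted p = 0.0260).

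BMP6, which acts through the same SMADs, lies on chromosome 6 (GRCh38, 7726797 to 7881422, plus strand) and was the least abundant of the 9, with raw counts of 4 to 42. Normalised counts in WNK2- cells were 12.3, 7.30, 18.1 and 7.50 in isotonic media and 26.6, 25.0, 30.9 and 33.7 under sorbitol, without overlap. This rise of 1.35 ± 0.38 (adjusted p = 0.0158) was the only difference of BMP6 that passed the test among the 7 pairwise comparisons. Group means elsewhere ran from 19.1 ± 9.65 (SD, n = 4) in WT Ctr to 36.7 ± 8.21 in WNK2 trans Ctr, and the ranges of all groups next to each other in order of level overlapped. The log2 differences of BMP6 were 0.79 ± 0.37 for sorbitol in WT (adjusted p = 0.127), 0.94 ± 0.37 for WNK2 trans against WT in isotonic media (adjusted p = 0.0991) and -0.64 ± 0.36 for sorbitol in WNK2 trans cells (adjusted p = 0.147). The response to sorbitol differed between WNK2 trans and WT cells by -1.43 ± 0.52 (adjusted p = 0.0338). In WT Ctr replicate 2 BMP6 had 4 counts, and without that library this interaction was -1.12 (adjusted p = 0.0555).

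**Figure D1:**
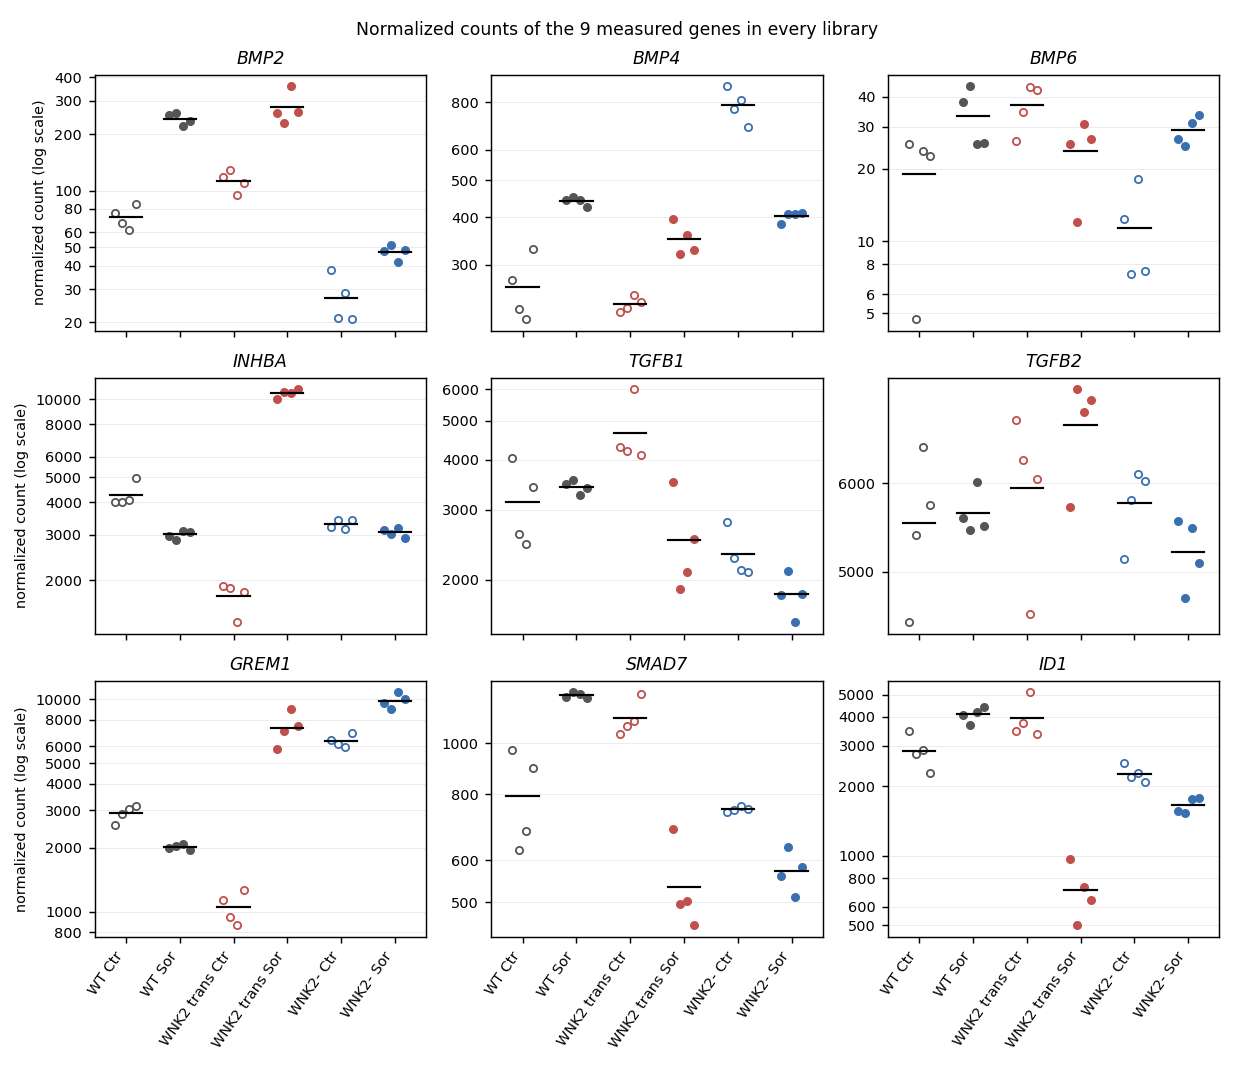
Normalised counts (log axis) of BMP2, BMP4, BMP6, INHBA, TGFB1, TGFB2, GREM1, SMAD7 and ID1 in each of the 24 libraries, with 4 points a group (grey WT, red WNK2 trans, blue WNK2-, open Ctr, filled Sor) and the group mean as a line. INHBA sits between 10056 and 10924 in WNK2 trans Sor and at 1377 to 1895 in WNK2 trans Ctr, and ID1 is lowest in WNK2 trans Sor, at 501 to 969.

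INHBA encodes the βA subunit of activin A, which signals through SMAD2 and SMAD3, and lies on chromosome 7 (GRCh38, 41667168 to 41705834, minus strand). Its normalised counts were 3994, 4013, 4081 and 4979 in WT Ctr and 2957, 2866, 3109 and 3078 in WT Sor. In WNK2 trans Ctr they were 1895, 1871, 1377 and 1796, and in WNK2 trans Sor 10056, 10705, 10556 and 10924. In WNK2- Ctr they were 3218, 3408, 3146 and 3426, and in WNK2- Sor 3119, 3008, 3187 and 2905. The libraries labelled as transfected thus held both the lowest and the highest INHBA of the series, and neither of these groups overlapped another. Within them INHBA under sorbitol was 6.09-fold that in isotonic media, a log2 fold change of 2.61 ± 0.09 (adjusted p = 7.70e-17). In WT cells sorbitol changed it by -0.51 ± 0.09 (adjusted p = 0.000201), and in WNK2- cells the value of -0.11 ± 0.09 did not pass the test (adjusted p = 0.462). Against WT, WNK2 trans cells had -1.30 ± 0.09 in isotonic media (adjusted p = 1.56e-10) and 1.81 ± 0.09 under sorbitol (adjusted p = 2.18e-13). The interaction of transfection and sorbitol was 3.11 ± 0.13 (adjusted p = 2.78e-15). WNK2- cells were below WT in isotonic media by -0.37 ± 0.09 (adjusted p = 0.00151), and under sorbitol the difference was 0.02 ± 0.09 (adjusted p = 0.844). The interaction with genotype, 0.40 ± 0.13, was at the threshold (adjusted p = 0.0493) and lay beyond it under 25 of 32 alternative settings, among them the fit without WT Ctr replicate 4, the highest WT library (0.29, adjusted p = 0.115). An antisense gene at the locus, INHBA-AS1, had 0 to 35 counts and shares no exon with INHBA.

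TGFB1 encodes TGF-β1 and lies on chromosome 19 (GRCh38, 41301587 to 41353911, minus strand). Of its merged exons, 215 bases or 6.64% overlap exons of HNRNPUL1 on the other strand, and with the strand of the library not stated, reads there cannot be assigned to either gene. Normalised counts of TGFB1 were 4047, 2604, 2454 and 3417 in WT Ctr and 3470.1, 3565, 3268 and 3401 in WT Sor, which overlapped. They were 4297, 4193, 5999 and 4113 in WNK2 trans Ctr and 3523, 1900.1, 2097 and 2532 in WNK2 trans Sor. They were 2787, 2272, 2122 and 2097 in WNK2- Ctr and 1838, 2112, 1569.8 and 1847 in WNK2- Sor. All WNK2 trans Ctr libraries were above all others, and the WNK2- Sor libraries were below all WT libraries. TGFB1 changed with sorbitol by -0.89 ± 0.17 in WNK2 trans cells (adjusted p = 0.000128), while the changes in WT cells (0.13 ± 0.17, adjusted p = 0.618) and WNK2- cells (-0.33 ± 0.17, adjusted p = 0.211) did not pass. The interaction of transfection and sorbitol was -1.02 ± 0.24 (adjusted p = 0.00170). WNK2- cells were below WT under sorbitol, by -0.90 ± 0.17 (adjusted p = 0.000109). Other differences of TGFB1 were close to the threshold, namely -0.43 ± 0.17 for WNK2- against WT in isotonic media (adjusted p = 0.0417), 0.57 ± 0.17 for WNK2 trans against WT in isotonic media (adjusted p = 0.0254) and -0.45 ± 0.17 for the same cells under sorbitol (adjusted p = 0.0451). These calls were lost under 10, 4 and 14 of the 32 alternatives.

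TGFB2, which encodes TGF-β2, lies on chromosome 1 (GRCh38, 218346235 to 218444619, plus strand) and passed the test in none of the 7 comparisons, with adjusted p from 0.0752 to 0.881. Its group means ran from 5212 ± 372 (SD, n = 4) in WNK2- Sor to 6764 ± 714 in WNK2 trans Sor, a ratio of 1.30. Of the merged exons of TGFB2, 1371 bases or 26.6% overlap TGFB2-OT1 on the same strand, which was listed at 0 in all libraries. Whether reads there were left out of the TGFB2 counts was not tested. The largest log2 difference of TGFB2 was 0.26 ± 0.11, for WNK2 trans against WT under sorbitol, and each group overlapped the next in order of level. Over the 24 libraries with group means removed, TGFB1 and TGFB2 varied in opposite directions (Pearson r = -0.83), given as a description of libraries that share 6 groups. This value was the largest in size among all pairs of the tested genes. Other pairs also varied together or apart, such as TGFB1 with SMAD7 (r = 0.69) and TGFB2 with ID1 (r = -0.68). TGFB3, for TGF-β3, lies on chromosome 14 (GRCh38, 75958099 to 75982991, minus strand) and was listed at 0 in all 24 libraries. CCDC97 and TMEM91, on the other strand at the TGFB1 locus, were listed at 0 in all libraries as well, and CCDC97 is used by cells of most kinds. The files do not tell a gene without transcripts from one whose reads could not be counted, so no limit or fold is given for TGFB3.

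GREM1 lies on chromosome 15 (GRCh38, 32717974 to 32745107, plus strand) and was the gene of the 9 that passed the test in all 7 pairwise comparisons. Its normalised counts were 2568, 2873, 3026 and 3147 in WT Ctr and 1999, 2031, 2083 and 1941 in WT Sor. In WNK2 trans Ctr they were 1134, 947, 865 and 1267, and in WNK2 trans Sor 5842, 7055, 8983 and 7471. In WNK2- Ctr they were 6451, 6153, 5945 and 6931, and in WNK2- Sor 9528, 8986, 10753 and 9958. No group overlapped the next in order of level, with the exception of WNK2 trans Sor and WNK2- Ctr, and group means spanned 9.31-fold. Sorbitol changed GREM1 by -0.53 ± 0.11 in WT cells (adjusted p = 0.00157), by 0.62 ± 0.11 in WNK2- cells (adjusted p = 0.000344) and by 2.80 ± 0.12 in WNK2 trans cells (adjusted p = 1.95e-15), in which sorbitol libraries had 6.97-fold the isotonic level. The responses differed from that of WT by 1.15 ± 0.16 in WNK2- cells (adjusted p = 3.95e-05) and by 3.33 ± 0.17 in WNK2 trans cells (adjusted p = 7.73e-14). WNK2- cells had more GREM1 than WT cells, by 1.13 ± 0.11 in isotonic media (adjusted p = 1.77e-08) and by 2.28 ± 0.12 under sorbitol (adjusted p = 4.08e-14). The libraries labelled WNK2 trans had less than WT in isotonic media (-1.46 ± 0.12, adjusted p = 2.01e-09) and more under sorbitol (1.87 ± 0.12, adjusted p = 1.11e-11). A lincRNA on the other strand, AC090877.2, shares 188 bases of exon with GREM1 and had 0 to 19 counts.

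Levels of the antagonist and its ligands can be set side by side as CPM per kilobase of merged exons. These exons come to 14606 bases for GREM1, 3082 for BMP4 and 3601 for BMP2. The order of GREM1 and BMP4 depends on these lengths, and which annotated exons the cells use was not tested. Before division by length, mean normalised counts in WT Sor were 2013 for GREM1 and 440 for BMP4. GREM1 stood at 10.5 CPM per kilobase in WT Ctr, with BMP4 at 4.49 and BMP2 at 1.06. In WNK2 trans Ctr GREM1 was at 3.76 ± 0.73 (SD, n = 4), BMP4 at 3.99 ± 0.11 and BMP2 at 1.64 CPM per kilobase. The difference between GREM1 and BMP4 there was within the spread of GREM1. In WNK2- Ctr GREM1 was at 23.1, BMP4 at 13.6 and BMP2 at 0.397 CPM per kilobase. In WT Sor GREM1 was at 7.70, BMP4 at 7.98 and BMP2 at 3.75 CPM per kilobase. In WNK2- Sor GREM1 was at 37.8, BMP4 at 7.34 and BMP2 at 0.741 CPM per kilobase, and in WNK2 trans Sor at 28.5, 6.46 and 4.38 in the same order. BMP6 was between 0.216 and 0.685 CPM per kilobase in all groups. TGFB1 and TGFB2 were higher, at 32.0 to 74.4 and 56.6 to 74.7 CPM per kilobase, and ID1, a short gene, ran from 32.7 to 186 CPM per kilobase.

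SMAD7, the inhibitory SMAD, lies on chromosome 18 (GRCh38, 48919853 to 48952052, minus strand). Its normalised counts were 973, 628, 682 and 896 in WT Ctr and 1223, 1248, 1239 and 1220.0 in WT Sor. In WNK2 trans Ctr they were 1041, 1076, 1103 and 1239, and in WNK2 trans Sor 687, 496, 503 and 453. In WNK2- Ctr they were 741, 748, 759 and 751, and in WNK2- Sor 561, 635, 512 and 584. SMAD7 was higher with sorbitol in every WT library and lower with sorbitol in every library of the other cells. The log2 fold change with sorbitol was 0.63 ± 0.12 in WT (adjusted p = 0.000589), -1.06 ± 0.13 in WNK2 trans (adjusted p = 1.60e-07) and -0.39 ± 0.12 in WNK2- cells (adjusted p = 0.0344), the last lost under 9 of 32 alternatives. These responses differed from that of WT by -1.70 ± 0.18 in WNK2 trans (adjusted p = 4.41e-08) and by -1.02 ± 0.18 in WNK2- cells (adjusted p = 0.000457). Under sorbitol SMAD7 was below WT by -1.21 ± 0.13 in WNK2 trans (adjusted p = 6.65e-08) and by -1.10 ± 0.12 in WNK2- cells (adjusted p = 6.32e-08). In isotonic media it was 0.49 ± 0.12 above WT in WNK2 trans cells (adjusted p = 0.00880), and -0.08 ± 0.12 in WNK2- cells did not pass the test (adjusted p = 0.624).

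ID1, a DNA-binding inhibitor and direct BMP target, lies on chromosome 20 (GRCh38, 31605283 to 31606515, plus strand). Its normalised counts were 3482, 2769, 2866 and 2293 in WT Ctr and 4096, 3675, 4202 and 4428 in WT Sor. In WNK2 trans Ctr they were 3486, 3778, 5114 and 3389, and in WNK2 trans Sor 969, 501, 734 and 643. In WNK2- Ctr they were 2515, 2202, 2285 and 2094, and in WNK2- Sor 1569, 1536, 1772 and 1772. All 4 WNK2 trans Sor libraries were below all others, and all 4 WNK2- Sor libraries came next. In WNK2 trans cells sorbitol changed ID1 by -2.47 ± 0.16 (adjusted p = 3.93e-12), to 0.181 of the isotonic level, whereas in WT it rose by 0.52 ± 0.15 (adjusted p = 0.0134). The change of -0.45 ± 0.15 in WNK2- cells was close to the threshold (adjusted p = 0.0442) and was lost under 16 of 32 alternatives. The interactions were -3.00 ± 0.22 with transfection (adjusted p = 1.16e-10) and -0.98 ± 0.21 with genotype (adjusted p = 0.00487). Under sorbitol ID1 was below WT by -2.53 ± 0.16 in WNK2 trans (adjusted p = 1.28e-11) and by -1.30 ± 0.15 in WNK2- cells (adjusted p = 1.27e-07). In isotonic media the difference was 0.47 ± 0.15 for WNK2 trans (adjusted p = 0.0428), lost under 14 alternatives, and -0.33 ± 0.15 for WNK2- cells (adjusted p = 0.0852).

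**Figure D2:**
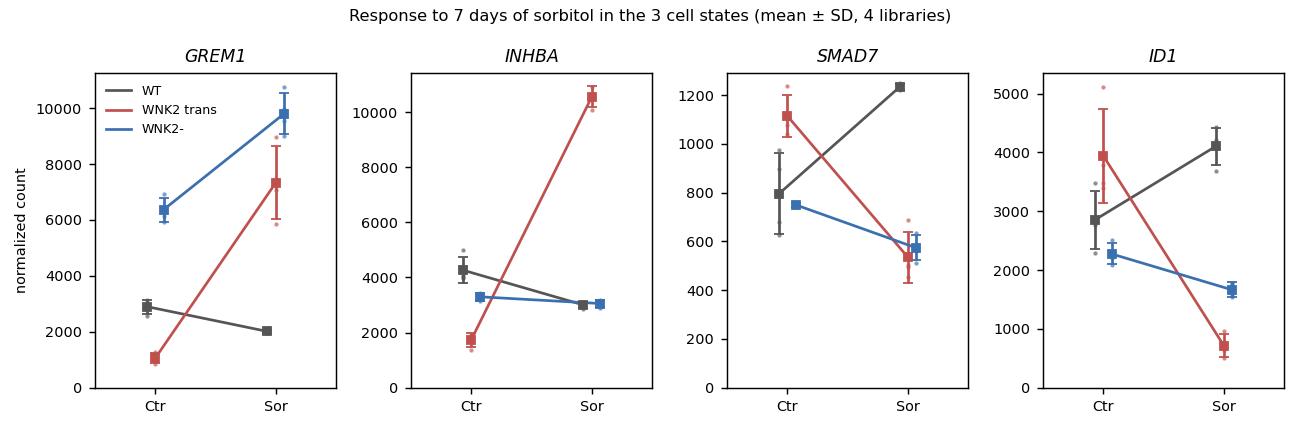
Normalised counts of GREM1, INHBA, SMAD7 and ID1 without (Ctr) and with sorbitol (Sor) in WT (grey), WNK2 trans (red) and WNK2- cells (blue), as mean ± SD of 4 libraries (squares and bars) with each library as a dot. In WNK2 trans cells GREM1 goes from 1053 to 7338 and ID1 from 3942 to 712, and in WT cells both move the other way.

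The comparison of WT Sor with WT Ctr asks what chronic sorbitol does in unmodified cells. BMP2, BMP4, SMAD7 and ID1 rose and INHBA and GREM1 fell, so that 4 of the 9 genes were higher and 2 lower. Among all tested genes 11.4% were higher and 12.7% lower. The median log2 fold change was 0.52 over the 9 genes and 0.04 over all tested genes. Bulk RNA gives the level per library, in which fewer cells of a kind and less RNA per cell cannot be told apart. Of 88 other tested genes of the pathway, taken from 7 lists, 13 rose and 6 fell. Among other ligands, 4 of 16 rose and 2 fell. GDF15, a stress-induced member of the family, rose from 730.0 ± 222 to 2454 ± 135 normalised counts (SD, n = 4), a log2 fold change of 1.75 ± 0.20 (adjusted p = 7.78e-07). INHBE, an activin subunit gene, rose by 1.35 ± 0.25 (adjusted p = 0.000342), while INHBB, a further one, fell by 1.24 on the log2 scale from a low level of 31.4 ± 16.1 (adjusted p = 0.0100). SMAD6, the inhibitory SMAD of the BMP branch, rose by 0.87 ± 0.14 (adjusted p = 8.79e-05). SMAD9 fell by 0.76 (adjusted p = 0.0264) and TWSG1, a BMP-binding protein gene, by 0.49 on the log2 scale (adjusted p = 0.00678). None of 13 genes for latency and activation of TGF-β was called.

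WNK2- cells in isotonic media were compared with WT Ctr to ask what the deletion changes without stress. BMP4 and GREM1 were higher and BMP2, INHBA and TGFB1 lower, which is 2 of 9 genes higher and 3 lower, against 20.7% and 21.5% of all tested genes. The median of the 9 genes was -0.33 and that of all tested genes 0.00. Of 11 other extracellular antagonists 6 were higher and 2 lower, with a median of 0.65. NOG, which encodes the BMP antagonist noggin, was at 148 ± 24.1 in WNK2- Ctr and 33.1 ± 26.2 in WT Ctr (2.18 ± 0.36, adjusted p = 2.42e-05). FSTL1, a follistatin-like gene, was higher by 2.10 ± 0.23 (adjusted p = 4.81e-08), and CHRDL2, for a chordin-like antagonist, changed by -1.90 ± 0.33 (adjusted p = 6.09e-05). TAGLN, a gene of the contractile apparatus induced by TGF-β, was higher by 2.42 ± 0.13 (adjusted p = 2.97e-13). COL3A1, a fibrillar collagen gene in the same list of TGF-β targets, changed by -2.12 ± 0.09 (adjusted p = 1.71e-15), and that list had 4 of 11 genes higher and 4 lower. Of the BMP targets HEY1 changed by -3.09 ± 0.20 (adjusted p = 5.71e-12), while SMAD6 was higher by 1.86 ± 0.14 (adjusted p = 1.16e-10).

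Under sorbitol WNK2- cells had 1 of the 9 genes higher than WT, GREM1, and 4 lower, BMP2, TGFB1, SMAD7 and ID1, against 23.7% and 22.7% of all tested genes. The median of the 9 genes was -0.19 and that of all tested genes 0.02. Of the other pathway genes 20 were higher and 35 lower out of 88. Among other ligands 8 of 16 were lower and 1, INHBB, was higher, at 91.9 ± 9.73 against 13.1 ± 2.07 (2.80 ± 0.31, adjusted p = 5.46e-08). All 11 tested TGF-β targets were called, 7 lower and 4 higher, with COL3A1 at 1065 ± 44.4 against 12627 ± 537 (-3.57 ± 0.09, adjusted p = 7.57e-20). Of 11 BMP targets 4 were lower and 1 higher, and HEY1 changed by -3.46 ± 0.20 (adjusted p = 2.67e-13). FSTL1 was higher by 2.71 ± 0.22 (adjusted p = 2.91e-10) and CHRDL2 changed by -3.68 ± 0.36 from 60.6 ± 15.8 counts in WT Sor (adjusted p = 4.43e-09). NEDD4L, for a ubiquitin ligase that acts on SMADs and ion channels, was higher by 2.13 ± 0.11 (adjusted p = 4.95e-14). This comparison shares its WT Sor libraries with the sorbitol comparison in WT cells.

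The libraries labelled WNK2 trans Ctr were compared with WT Ctr to ask what added WNK2 does in isotonic media, with the limit that WNK2 itself was lower in them. BMP2, TGFB1, SMAD7 and ID1 were higher and INHBA and GREM1 lower, that is 4 and 2 of 9 genes against 5.57% and 6.98% of all tested genes. When only these 2 groups were fitted, 2 genes were called, INHBA and GREM1. The median of the 9 genes was 0.47 and that of all tested genes 0.01. TGF-β targets were mainly higher, with 7 of 11 called higher and 1 lower. SNAI1, a transcription factor gene of epithelial to mesenchymal transition, was at 2569 ± 441 against 903 ± 223 (1.51 ± 0.18, adjusted p = 1.62e-06), and COL3A1 was higher by 1.23 ± 0.08 (adjusted p = 1.34e-10). CHRDL2 was higher by 1.71 ± 0.28 (adjusted p = 0.000118). INHBB changed by -1.36 ± 0.34 (adjusted p = 0.00920), FST, the gene of the activin antagonist follistatin, by -0.88 ± 0.18 (adjusted p = 0.00117) and NEDD4L by -0.80 ± 0.11 (adjusted p = 1.11e-05).

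Under sorbitol, the libraries labelled WNK2 trans had INHBA and GREM1 higher than WT and BMP4, TGFB1, SMAD7 and ID1 lower, 2 and 4 of 9 genes against 16.1% and 15.5% of all tested genes. The median of the 9 genes was -0.33 and that of all tested genes 0.01. No BMP target was higher and 7 of 11 were lower, with a median of -0.83. In these WNK2 trans Sor libraries chondrocyte markers other than HAPLN1 were mainly lower than in WT Sor, as given above. Of the endothelial markers CDH5 alone had a higher mean than in WT Sor. ID3, the relative of ID1, was at 571 ± 200.2 against 2611 ± 123 (-2.20 ± 0.21, adjusted p = 2.44e-08). NOG was at 332 ± 87.2 against 43.1 ± 6.16 (2.94 ± 0.34, adjusted p = 3.34e-07), INHBB was higher by 2.65 ± 0.32 (adjusted p = 5.06e-07) and FSTL1 by 1.87 ± 0.22 (adjusted p = 5.17e-07). CHRD, for the BMP antagonist chordin, changed by -2.54 ± 0.39 (adjusted p = 1.70e-05) and INHBE by -1.86 ± 0.25 (adjusted p = 3.97e-06).

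The response to sorbitol within WNK2- cells comprised BMP2, BMP6 and GREM1 among the genes that rose and BMP4, SMAD7 and ID1 among those that fell, 3 and 3 of 9 against 8.25% and 6.64% of all tested genes. The median of the 9 genes was -0.15 and that of all tested genes 0.00. When at least 10 counts were required in every library, BMP6 was not tested and SMAD7 (adjusted p = 0.0557) and ID1 (adjusted p = 0.0656) did not pass, which left 3 genes called. Of the other pathway genes 9 rose and 19 fell out of 88. COL1A1, the main fibrillar collagen gene of bone, fell from 47652 ± 3032 to 17585 ± 1485 counts (-1.44 ± 0.13, adjusted p = 1.96e-08), and 6 of 11 TGF-β targets fell and 2 rose. SMAD6 fell by 0.97 (adjusted p = 1.30e-05) and GDF6, a BMP gene of the joint, by 1.35 on the log2 scale (adjusted p = 0.00761). TGFBR3, for the coreceptor betaglycan, rose by 1.46 ± 0.20 (adjusted p = 8.72e-06), RGMA, for a BMP coreceptor, by 1.40 ± 0.29 (adjusted p = 0.00139) and ITGB8, for an integrin that activates TGF-β, by 1.35 ± 0.17 (adjusted p = 3.58e-06).

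Within the libraries labelled as transfected, sorbitol raised BMP2, BMP4, INHBA and GREM1 and lowered TGFB1, SMAD7 and ID1, 4 and 3 of 9 genes against 24.3% and 23.7% of all tested genes. The median of the 9 genes was 0.19 and that of all tested genes 0.01. Of 11 BMP targets 10 fell and none rose, with a median of -1.24. The means of CDH5 and PECAM1 were higher and those of CD14, ACAN, COL2A1 and COL9A3 were lower in the same sorbitol libraries, and their part in these changes was not tested. Other antagonists were split, with 5 of 11 higher and 2 lower. NOG rose from 15.2 ± 5.43 to 332 ± 87.2 (4.47 ± 0.39, adjusted p = 9.57e-10), whereas CHRD fell from 145 ± 34.4 to 17.6 ± 11.7 (-3.04 ± 0.38, adjusted p = 4.66e-07) and CHRDL2 fell by 2.81 on the log2 scale (adjusted p = 3.47e-08). INHBB rose by 2.77 ± 0.32 (adjusted p = 1.10e-07), NEDD4L rose by 2.59 ± 0.11 (adjusted p = 2.68e-15) and SNAI1 fell by 2.74 on the log2 scale (adjusted p = 1.37e-11).

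**Figure D3:**
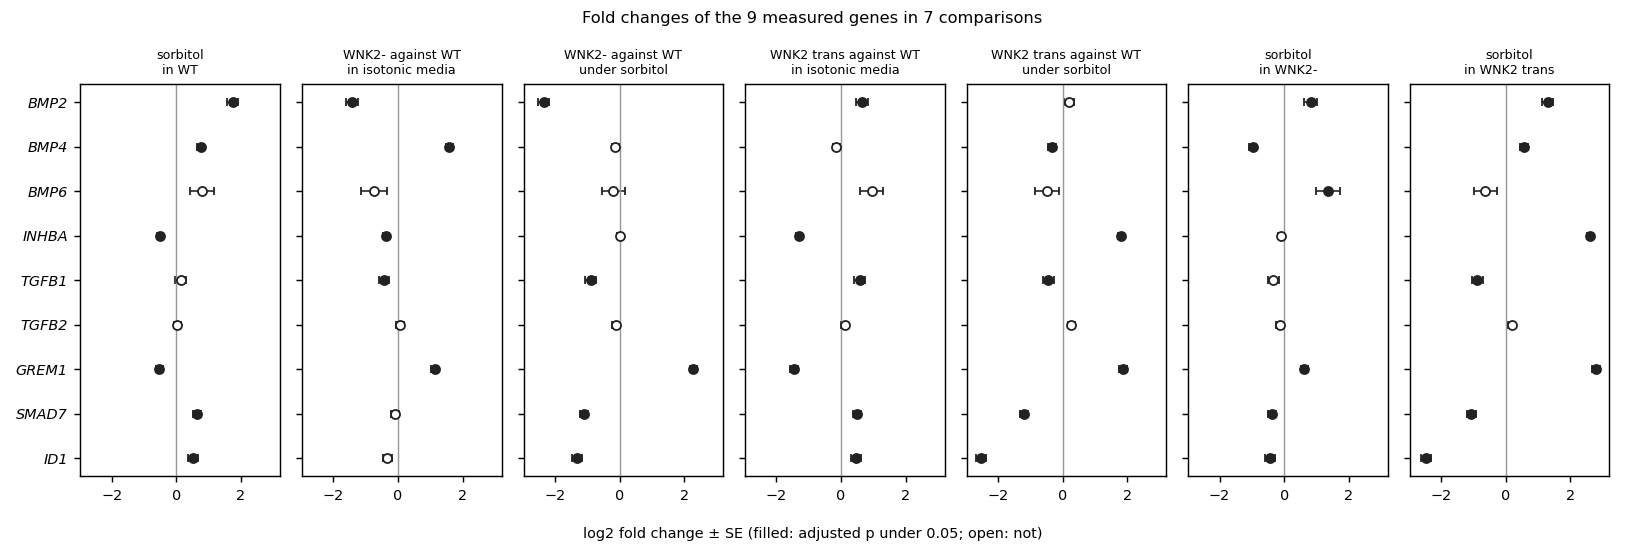
Log2 fold change ± SE (edgeR) of the 9 tested genes in the 7 pairwise comparisons, filled where the adjusted p was under 0.05 and open where it was not. GREM1 is filled in all 7 panels and TGFB2 in none, and GREM1, SMAD7 and ID1 change side between sorbitol in WT and sorbitol in WNK2 trans.

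Whether sorbitol acted differently in the 3 kinds of cells was tested with interaction terms. For WNK2- against WT, 6 of the 9 genes passed, with GREM1 and INHBA above 0 and BMP2, BMP4, SMAD7 and ID1 below, against 8.65% of all tested genes. For WNK2 trans against WT, 6 of 9 passed, with INHBA and GREM1 above 0 and BMP6, TGFB1, SMAD7 and ID1 below, against 35.5% of all tested genes. Both interactions share the WT libraries, so their values are set side by side and not compared. GREM1, SMAD7 and ID1 responded in opposite directions in WT cells and in both other kinds, and in each of these the interaction passed.

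**Figure D4:**
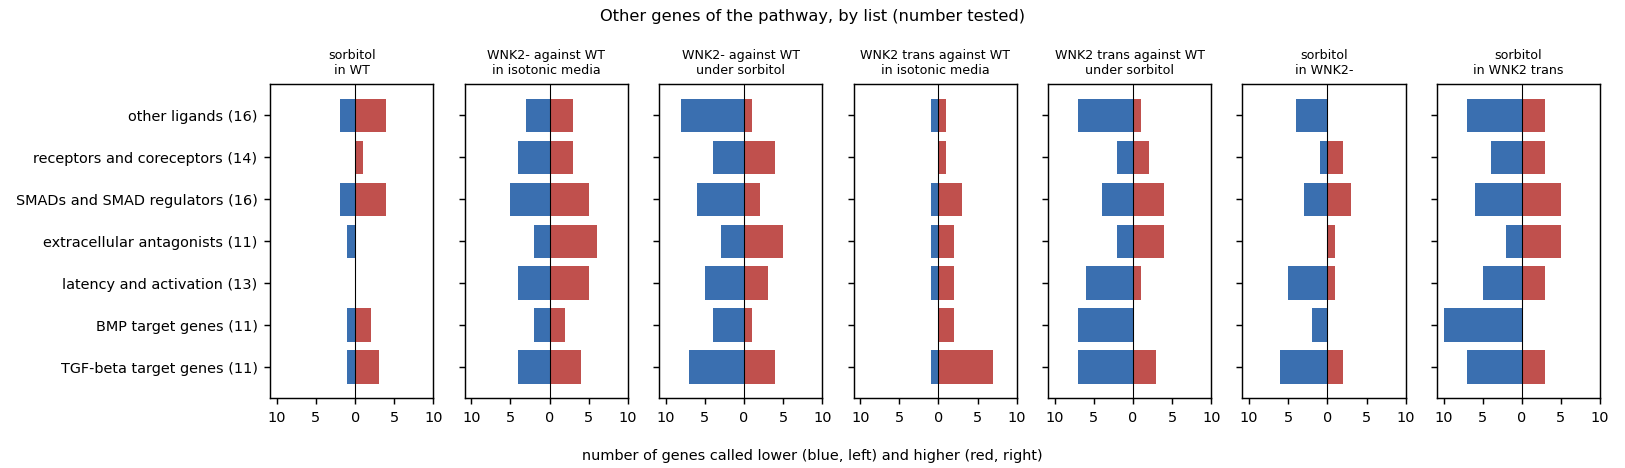
Number of genes called lower (blue, to the left) and higher (red, to the right) at an adjusted p under 0.05 in each of 7 lists of other pathway genes, for the 7 pairwise comparisons, with the number tested beside each list name. Of BMP targets 10 of 11 are lower with sorbitol in WNK2 trans cells and none is higher, and in WT cells 1 is lower and 2 are higher.

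The genes whose pattern over the 24 libraries was most like that of each gene were listed by Pearson's r of log2 CPM, as a description in which the libraries share 6 groups. For GREM1 they were CCND1, which encodes cyclin D1 (r = 0.98), ALCAM (r = 0.98) and TXNRD3 (r = 0.98). For INHBA they were CXCL8, which encodes the chemokine interleukin 8 (r = 0.94), DPYSL3 (r = 0.94) and MYO1D (r = 0.93). For ID1 they were ID3 (r = 0.97), KCNJ12 (r = 0.95) and PLPPR3 (r = 0.95), and for SMAD7 DDIT4 (r = 0.96), IRF2BPL (r = 0.95) and RAB6B (r = 0.95). BMP2 was most like SPRY2 (r = 0.96), SMARCA2 (r = 0.95) and TPBG (r = 0.94), and TGFB1 most like IGFBP4 (r = 0.97), NKIRAS2 (r = 0.97) and RING1 (r = 0.96). Likeness was lower for BMP4, with IFFO2 (r = 0.90), NXN (r = 0.87) and CPA4 (r = 0.86), for TGFB2, with FAM120C (r = 0.93), GLIS3 (r = 0.90) and TNKS (r = 0.90), and for BMP6, with SQSTM1 (r = 0.84), KLF13 (r = 0.83) and MAPK7 (r = 0.82).

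Because WNK2- cells are clonal, the genes beside each locus were described as well, as the 10 tested genes on either side. Around GREM1 the median log2 difference between WNK2- and WT cells was 0.26 in isotonic media, with 8 of the 20 neighbours called higher and 2 lower, and 0.58 under sorbitol, with 12 called higher and 0 lower (edgeR), where GREM1 itself stood at 2.28. Of all tested genes 20.7% were higher and 21.5% lower in isotonic media, and 23.7% were higher and 22.7% lower under sorbitol. Around BMP4 the medians were 0.30 and 0.47, with 9 of 20 neighbours called higher and 1 lower in isotonic media, where BMP4 stood at 1.59, and 15 higher and 2 lower under sorbitol, where it stood at -0.13. Around BMP2 the medians were 0.19 and 0.07 while BMP2 stood at -1.42 and -2.34. Around TGFB1 they were -0.21 and -0.22, around TGFB2 0.29 and 0.22, around SMAD7 0.10 and 0.03 and around ID1 0.06 and 0.08. Around INHBA they were 0.03 and 0.41, and around BMP6 -0.12 and 0.10. The part of a change in copy number at these loci was not tested.

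**Figure D5:**
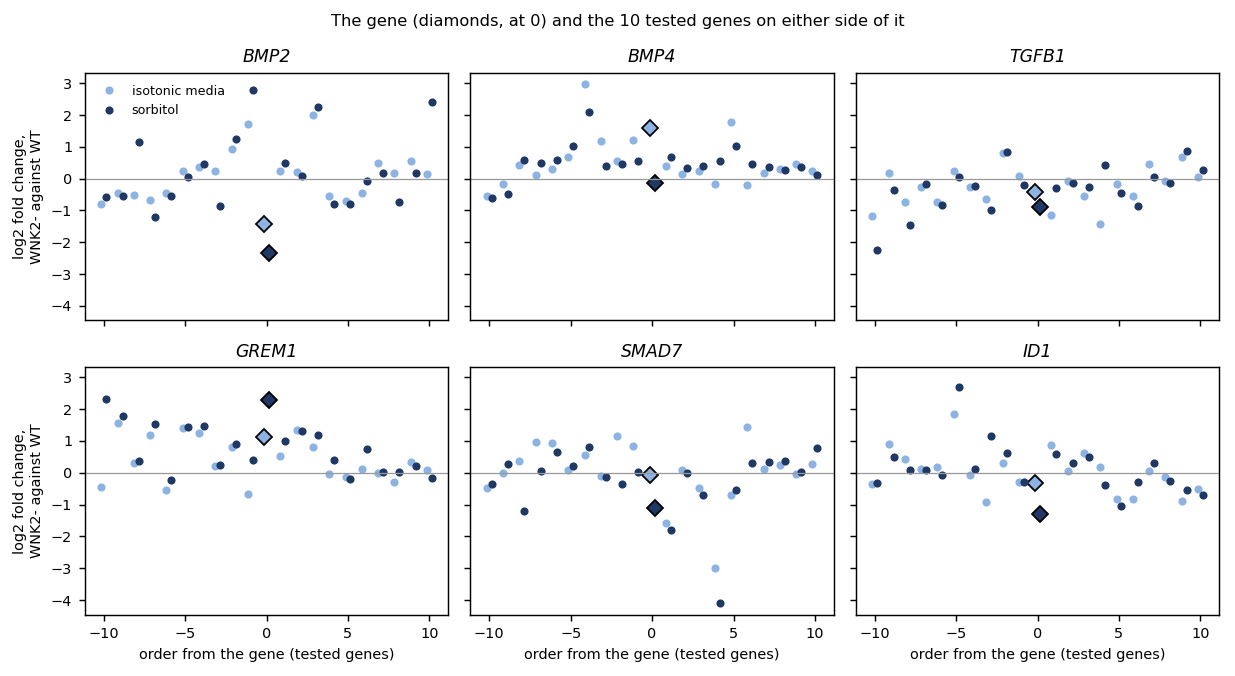
Log2 difference between WNK2- and WT cells for BMP2, BMP4, TGFB1, GREM1, SMAD7 and ID1 (diamonds, at 0) and the 10 tested genes on either side in chromosome order (dots), in isotonic media (light) and under sorbitol (dark). GREM1 lies above 0 with 12 of its 20 neighbours called higher under sorbitol, and BMP2 lies at -2.34 among neighbours with a median of 0.07.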

How the data were processed

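The authors deposited, for each of 24 libraries, raw read counts per gene on Ensembl identifiers without normalization. RNA was poly(A)-selected, and the strand setting and annotation release are not given in the sources used here. The submitters' processing notes name FastQC 0.11.9, HISAT2 2.2.1, HTSeq 2.0.2, DESeq2 1.38.3 and GRCh38. Sorbitol dose and times come from the study's methods. Positions and exon lengths come from GENCODE 29 on GRCh38, and promoters from RefSeq on GRCh38.p14.

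The quasi-likelihood test of edgeR 4.0.16 in R 4.3.3 was fitted to 6 group means with TMM factors, after a filter on low counts (filterByExpr, at least 10 counts and 15 in total). A normalised count is the count over its effective library size, times the mean of those sizes. Contrasts gave 7 pairwise comparisons and 2 interactions, each with Benjamini-Hochberg adjustment over 16600 genes and called at an adjusted p under 0.05. SE is the size of the log2 fold change over the square root of F. DESeq2 1.42.0 and other alternatives are described at the end. Figures were drawn with matplotlib 3.10.9. The test was checked on simulated counts.

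The genes and the lists were chosen with earlier results of these data known, so no list is independent support. Named were the 10 genes and WNK2, up to 3 list genes that rose and 3 that fell most in each comparison (mean log2 CPM of at least 1), the 3 genes most correlated with each gene (mean log2 CPM of at least 3) and genes overlapping them. SMAD6 in WNK2- Ctr was added after its value was seen. Replicates of a group differed by more than counting noise (chi-square per degree of freedom 2.30 to 68.4 over 36 pairs). This noise differed by group, at 2.30 to 5.13 in WT Sor and 19.5 to 64.1 in WT Ctr. The test estimated the spread of each gene over all 24 libraries, and not over the compared groups alone. How separately the cultures were grown is not given, so p-values measure this shared spread between these libraries. No batch is given in the labels.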

Additional observations from a re-analysis of the deposited data

Results flagged for a closer look

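In 54 sets of 4 libraries (9 genes in 6 groups), 4 single libraries stood apart from the other 3 by Dixon's test, where chance alone flags about 1 set in 20. BMP4 was at 384 in WNK2- Sor replicate 1, with the other 3 libraries between 407 and 409. BMP6 was at 4.74 in WT Ctr replicate 2, which rests on 4 counts. INHBA was at 4979 in WT Ctr replicate 4, and TGFB1 at 5999 in WNK2 trans Ctr replicate 3.

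By an interaction term in edgeR, the response to sorbitol differed between WNK2- and WT cells for 6 of the 9 genes, against 8.65% of all tested genes. For WNK2 trans and WT cells it differed for 6 of the 9, against 35.5% of all tested genes. Between WNK2- and WT cells the log2 difference was -0.92 for BMP2, -1.72 for BMP4, 0.40 for INHBA, 1.15 for GREM1, -1.02 for SMAD7 and -0.98 for ID1. Between WNK2 trans and WT cells it was -1.43 for BMP6, 3.11 for INHBA, -1.02 for TGFB1, 3.33 for GREM1, -1.70 for SMAD7 and -3.00 for ID1. WNK2 counts go against the labels in WNK2 trans Ctr and are low in WT Sor, which enters both sets, and their part in either set was not tested.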

How the results depend on the processing

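Of 2583 values of the 9 genes under alternative settings, 2459 kept their direction and their side of the threshold, 114 lost it, 10 gained it and 0 reversed, where 4 changes of sign in values that passed under neither setting are counted as kept. DESeq2 changed no call. Fitting only the groups compared gave 2 called genes for WNK2 trans against WT in isotonic media, and requiring at least 10 counts in every library gave 3 for sorbitol in WNK2-. With one replicate left out, the number called for sorbitol in WNK2- ran from 3 to 6, being 3 without WNK2- Ctr replicate 2 or WNK2- Ctr replicate 4. With the replicate block, in which same-numbered replicates shared a term, 80 of 81 values kept their side and the INHBA interaction with genotype missed it (0.40, adjusted p = 0.05999). In every comparison at least 1 same-numbered pair had a negative correlation of deviations. In WNK2- against WT in isotonic media, 3 of 4 WNK2- libraries correlated best with the WT library of the same number. In WNK2 trans against WT under sorbitol 0 of 4 did so. These values do not decide whether the numbers pair the libraries. Over all genes fitting only the groups compared gave 747 calls for WNK2 trans against WT in isotonic media in place of 2082, and 4824 in place of 2473 for sorbitol in WNK2-. The cause was not tested.

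Calls near the threshold depended on single libraries. TGFB1 in WNK2- against WT in isotonic media was lost without WT Ctr replicate 1 or 4, WT Sor replicate 3 or 4, WNK2 trans Sor replicate 4 or WNK2- Ctr replicate 2, 3 or 4 (adjusted p 0.05003 to 0.179). In WNK2 trans against WT in isotonic media, TGFB1 was lost without WT Ctr replicate 2 or 3 or WNK2 trans Ctr replicate 3 (0.0922 to 0.101), BMP2 without WNK2 trans Ctr replicate 2 (0.0516), and ID1 without any of 13 libraries (0.0503 to 0.167), the most without WNK2 trans Ctr replicate 3. In WNK2 trans against WT under sorbitol, TGFB1 was lost without any WT Sor replicate, WNK2 trans Sor replicate 2, 3 or 4, WNK2- Ctr replicate 2 or WNK2- Sor replicate 1 or 4 (0.0516 to 0.166), and BMP4 without WT Sor replicate 1 or 2 or WNK2 trans Sor replicate 2 or 4 (0.0546 to 0.0792). With sorbitol in WNK2- cells, SMAD7 was lost without any WNK2- Ctr replicate or WNK2- Sor replicate 1, 3 or 4 (0.0613 to 0.114), ID1 without any WNK2- library and 6 others (0.05004 to 0.122) and BMP6 without WNK2- Ctr replicate 2 or 4 (0.0660 and 0.0669). The BMP2 interaction with genotype was lost without WT Sor replicate 2, WNK2- Ctr replicate 1 or 3 or WNK2- Sor replicate 3 (0.0512 to 0.0731), and the BMP6 interaction with transfection without any of 6 libraries (0.0555 to 0.0771). The INHBA interaction with genotype was lost without any library other than WT Ctr replicate 1 or WNK2 trans Ctr replicate 3 (0.0563 to 0.119). Gained were, in WNK2- against WT in isotonic media, BMP6 without WT Ctr replicate 2 (0.0178) and ID1 without WT Ctr replicate 4 or WNK2 trans Sor replicate 1 (0.0388 and 0.0435), in WNK2 trans against WT under sorbitol TGFB2 without WNK2 trans Ctr replicate 3 or WNK2 trans Sor replicate 1 (0.0393 and 0.0316), and the BMP2 interaction with transfection without WNK2 trans Sor replicate 3 (0.0406). Thinning all libraries to the smallest total lost TGFB1 in WNK2- against WT in isotonic media (0.0508) and the interactions of BMP2 (0.0913) and INHBA (0.0595) with genotype, and gained BMP6 in WNK2 trans against WT in isotonic media (0.0489). BMP6 had 4 to 42 counts a library.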
